A study of Mus musculus with 4 samples.

Results

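The 43 genes described here encode proteins that repair DNA breaks and crosslinks. They were chosen by name, as 43 of the 24428 genes in the count tables, with earlier results of these data known. They were sorted by role into homologous recombination (17 genes), the Fanconi pathway (10), end joining (6), mismatch repair (2), damage signalling (6) and repair of single-strand breaks (2). The cells were 129SvEv mouse embryonic stem cells at passages 15 to 20, in bulk culture, grown with serum and LIF, the cytokine that keeps such cells undifferentiated. All of them carry floxed Smarca4 alleles (Smarca4flfl) and CreER, a recombinase that 4-hydroxytamoxifen switches on, and all 4 libraries, ethanol included, have acute deletion of Smarca4 as their genotype label. Smarca4 encodes BRG1, an ATPase of the mSWI/SNF chromatin remodeling complexes. One group was given 0.8 uM 4-hydroxytamoxifen (n = 2 libraries) and the other ethanol (n = 2), each for 48 h, and poly(A) RNA was collected 72 h after the start. Tamoxifen-treated cells without floxed alleles were not analysed here, so deletion, drug and active Cre cannot be told apart. Whether the libraries of a group stem from different cultures is not stated in the labels, and each p-value therefore reflects the spread between libraries alone, which may be technical.

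A double-strand break can be repaired by homologous recombination, which trims the ends and copies an intact sister, or by end joining, which binds the ends with the Ku heterodimer and ligates them. The Fanconi pathway detects crosslinks between the strands, attaches ubiquitin to the FANCD2-FANCI clamp and hands the lesion to nucleases and to recombination. The kinases ATM and ATR report breaks and stalled forks to the cell cycle. Embryonic stem cells spend much of their cycle in S phase and are known for relying on recombination.

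The libraries held 13458463 and 17191445 reads in genes with tamoxifen and 16130823 and 27086142 with ethanol, and the members had 99 to 25957 reads in a library. Smarca4 was at 68.5 and 68.7 CPM in the tamoxifen libraries and at 328.5 and 409 CPM in the ethanol libraries (CPM, a gene's reads scaled to a common library size with TMM factors). It fell 5.38-fold, a log2 fold change of -2.43 ± 0.17 (SE; edgeR quasi-likelihood test, adjusted p = 1.08e-05). Over all 14479 genes tested, 44.5% differed at an adjusted p under 0.05, 21.5% higher and 22.9% lower with tamoxifen. All 43 members passed the filter on low counts. Fibroblast markers had a summed level of 6044 and 6240 CPM with tamoxifen and 4322 and 3752 CPM with ethanol, and 21 of the 28 tested were higher and 0 lower. None of the 29 was without reads in both ethanol libraries, and Lum, at 0 to 0.425 CPM, was among the lowest. Stem cell markers summed to 6221 and 5903 CPM with tamoxifen and 6200 and 6076 CPM with ethanol, and of the 12 tested 1 was higher and 2 lower (3 and 3 with GC correction). In bulk RNA, fewer cells of a type and less RNA per cell cannot be told apart, and the part of fibroblast-like RNA in the changes below was not tested.

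Of the 43 repair genes, 17 fell and 4 rose with tamoxifen, which is 39.5% lower and 9.3% higher, against 22.9% and 21.5% of all tested genes. Their median log2 fold change was -0.38, against -0.01 for all tested genes. Of the 17 that fell, 12 act in homologous recombination. The changes were moderate: the members that fell did so by 0.42 to 1.09 on the log2 scale, and those that rose did so by 0.46 to 0.78. The tamoxifen libraries lay below both ethanol libraries for 26 members and above both for 8, while 9 overlapped. Among all tested genes, 37% lay below and 37% above, or 74% in either direction. At an unadjusted p under 0.05, 21 members were lower and 5 higher, against 26.9% and 25.8% of all tested genes. DESeq2 called 16 lower and 3 higher, against 19.8% and 16.7% of all tested genes (36.5% in either direction). With total counts in place of TMM scaling, which moved the median of all genes to 0.12 log2, 12 members were lower and 5 higher, against 17.4% and 28.2% (45.6% in either direction). Without ethanol replicate 1, 25 members were lower, against 25% of all tested genes, with 8 added to the 17: Fancl, Fancm, Prkdc, Lig4, Rif1, Pms2, Atm and Chek2. Without tamoxifen replicate 1, 9 were lower, against 13.8%, and without tamoxifen replicate 2, 10 were lower, against 14.2%. Replicates of a group differed by a median of 0.155 log2 over the members with tamoxifen and 0.157 with ethanol.

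Transcripts poor in G and C were lower with tamoxifen across the whole data set. Between transcript GC content and log2 fold change, Spearman's rho was 0.645 over 14393 genes and 0.699 over the 43 members. These values are descriptions over genes that share libraries and base composition. The members had a median GC content of 46.2%, against 50.4% for all tested genes. The 17 that fell had a median of 44.4% and the 4 that rose 53.7%. When the GC trend of each library was removed before the test, 6 members were lower and 0 higher, or 14% and 0%, against 10% and 10.1% of all tested genes (20.1% in either direction). At an unadjusted p under 0.05, 9 were lower and 7 higher with the correction, against 16.2% and 17.8% of all tested genes. With GC and length corrected together, 7 were lower and 0 higher, against 9.42% and 9.37% (18.8% in either direction), the added one being Blm. With GC correction alone, 11 of 17 calls lower and all 4 calls higher ended. The 6 members called with and without it were Nbn, Wrn, Brca2, Rad51ap1, Xrcc5 and Fancf, and the corrected median of the members was -0.05. Of these 6, Fancf was the 1 still called with GC correction without each library in turn. Between the ethanol libraries, the log2 difference of replicate 2 from replicate 1 also followed GC content, with a rho of -0.264 over all tested genes and -0.312 over the members. The trend runs along the treatment, and the GC trend and the treatment cannot be told apart, so the corrected value is given below beside each call.

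**Figure D1:**
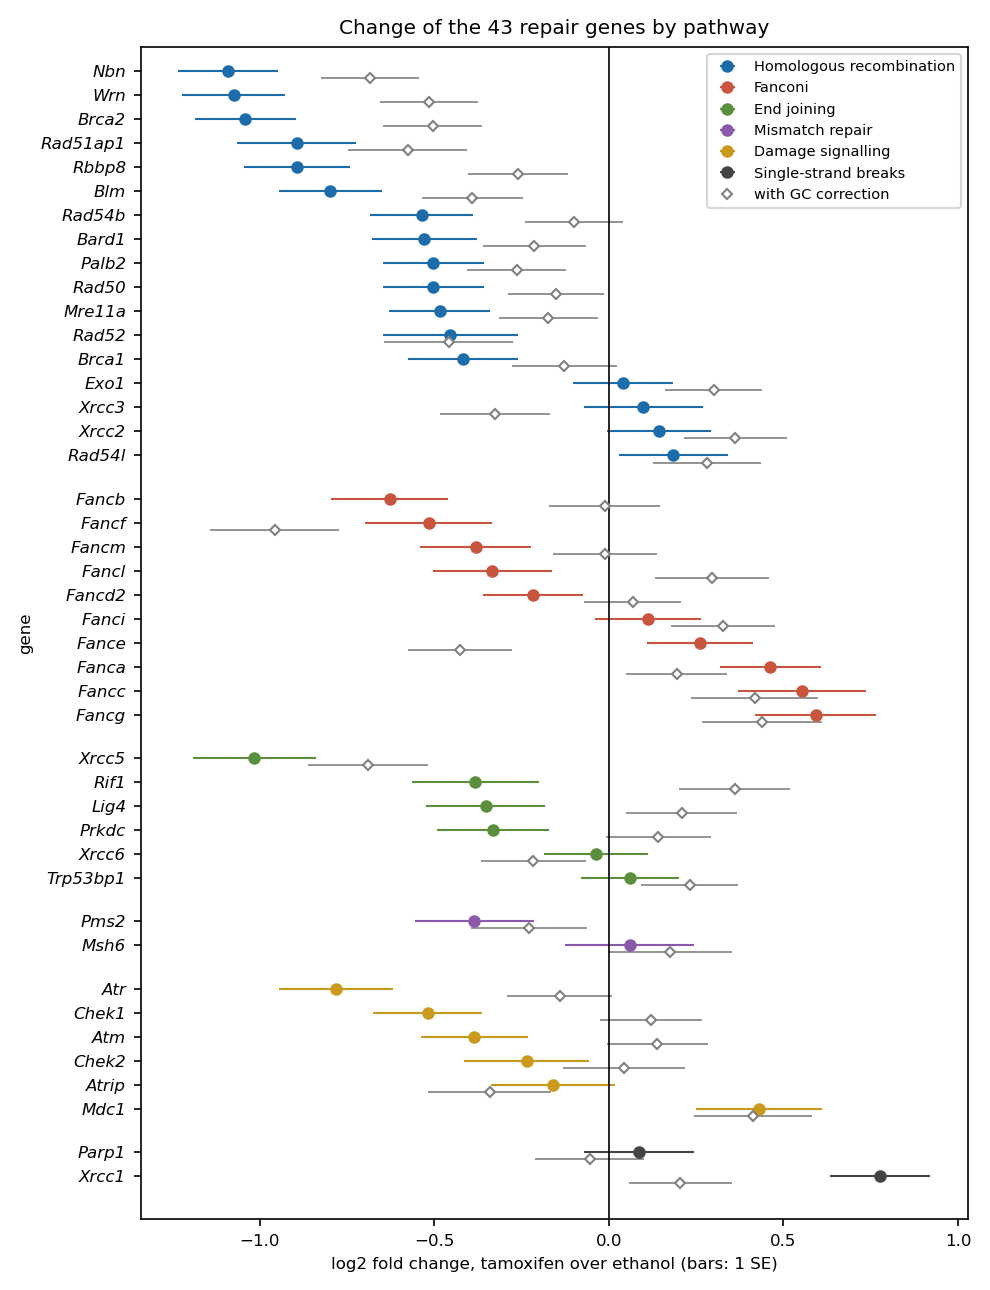
Log2 fold change of each of the 43 members, tamoxifen over ethanol (x axis), by pathway; filled circles are the edgeR values, open diamonds the values with GC correction, and bars are 1 SE. The circles of Nbn (-1.09), Wrn (-1.08) and Brca2 (-1.04) lie farthest to the left, and most diamonds of recombination genes lie nearer to 0.

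**Figure D2:**
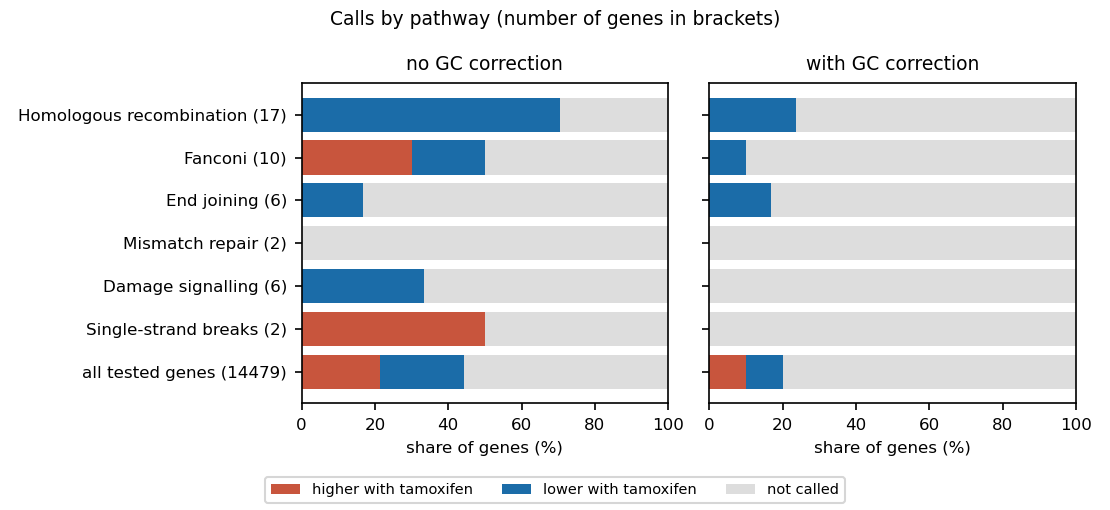
Share of genes (x axis, %) called higher, called lower or not called in each pathway and among all 14479 tested genes, without GC correction (left) and with it (right). Of the recombination genes 70.6% were lower without the correction and 23.5% with it, against 22.9% and 10% of all tested genes.

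Most homologous recombination genes fell: 12 of 17 were lower and 0 higher (70.6% lower, against 22.9% of all tested genes), with a median log2 fold change of -0.50. DESeq2 and limma voom also called 12 lower and 0 higher, and 0 were higher at an unadjusted p under 0.05 by edgeR. Without tamoxifen replicate 1 or 2 the median was -0.53 and -0.49, with fewer of these and of all tested genes called lower. With total counts 9 were lower (52.9%, against 17.4%). With GC correction 4 of 17 were lower (23.5%, against 10%) and 0 higher (2 at an unadjusted p under 0.05), and the median was -0.26. Without tamoxifen replicate 1 or 2 the corrected median was -0.29 and -0.23, and without ethanol replicate 1 or 2 it was -0.25 and -0.20. Without either tamoxifen library fewer of these and of all tested genes were called lower with the correction. The share of recombination genes then came close to that of all tested genes without tamoxifen replicate 1. Without tamoxifen replicate 2 it fell below that share, as no recombination gene was called. Without ethanol replicate 2 more of both were called lower. Ends are first bound by the MRE11-RAD50-NBS1 complex, and all 3 of its genes fell. Nbn, which encodes NBS1, had 38.4 and 38 CPM in the tamoxifen libraries, against 83.1 and 79.5 CPM in the ethanol libraries. The groups did not overlap, and Nbn fell 2.13-fold (-1.09 ± 0.14 log2, SE; edgeR adjusted p = 0.00021), with a corrected log2 fold change of -0.69 (adjusted p = 0.00442). The corrected call ended without tamoxifen replicate 2 (-0.66). The nuclease gene Mre11a fell by 0.48 log2 and Rad50 by 0.50, calls that ended with GC correction (-0.17 and -0.15). Both calls also ended without tamoxifen replicate 1 (Mre11a -0.57, Rad50 -0.47) and without tamoxifen replicate 2 (-0.40 and -0.54), and that of Mre11a ended with total counts (-0.36).

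Trimming of the ends is started by CtIP and extended by EXO1. Rbbp8, the gene of CtIP, had 27.1 and 28.2 CPM with tamoxifen and 47.4 and 55.3 CPM with ethanol. It fell 1.86-fold (-0.89 ± 0.15 log2, SE; edgeR adjusted p = 0.000853), and the call ended with GC correction (-0.26). Exo1 had a log2 fold change of 0.04 ± 0.14 (0.30 with GC correction, not called), and its groups overlapped.

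The BRCA1-BARD1 ligase, the bridging protein PALB2 and BRCA2 form a chain that acts on the trimmed strand, and all 4 genes fell. Brca2 had 117.4 and 114.3 CPM in the tamoxifen libraries, against 241.1 and 235.9 CPM in the ethanol libraries. Replicates of either group were close and the groups were far apart, a 2.06-fold fall (-1.04 ± 0.15 log2, SE; edgeR adjusted p = 0.000284). With GC correction Brca2 was at -0.50 and still called (adjusted p = 0.0237), though not without tamoxifen replicate 1 (-0.55) or 2 (-0.46). Bard1 (-0.53), Palb2 (-0.50) and Brca1 (-0.42) fell less, and their calls ended with GC correction (-0.21, -0.26 and -0.13). Brca1 was close to the threshold (edgeR adjusted p = 0.0467). Its call ended without tamoxifen replicate 1 (-0.34), tamoxifen replicate 2 (-0.49) or ethanol replicate 2 (-0.27) and with upper-quartile factors (-0.36) or total counts (-0.29). Palb2 was not called without tamoxifen replicate 1 (-0.53) or 2 (-0.48) or with total counts (-0.38), nor was Bard1 without tamoxifen replicate 2 (-0.41). In CPM, the ratio of Brca1 to Bard1 was 2.27 and 2.97 with tamoxifen and 2.3 and 2.5 with ethanol, so it overlapped between the groups.

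Of the genes for the strand invasion step, 2 fell. Rad51ap1, which stimulates strand invasion, had 17.5 and 14.1 CPM with tamoxifen and 31.3 and 27.5 CPM with ethanol, a fall of 0.90 log2 (edgeR adjusted p = 0.00155; -0.58 with GC correction, adjusted p = 0.0284). Without tamoxifen replicate 1 (-0.75) or 2 (-0.41) the corrected call ended. The translocase gene Rad54b fell by 0.54 log2, a call that ended with GC correction (-0.10) and without tamoxifen replicate 1 (-0.45). Its paralog Rad54l had 0.18 ± 0.16 and the recombination genes Xrcc2 and Xrcc3 had 0.14 and 0.10, none of them called. With GC correction these 3 were at 0.28, 0.36 and -0.33, again not called. With a replicate block added to the correction Xrcc2 was called higher (0.36). In that fit 1 recombination gene was higher (5.88%, against 17.8% of all tested genes) and 6 lower (35.3%, against 17%). Rad52, an annealing factor, had -0.45 ± 0.19 and did not pass the test (adjusted p = 0.0741). It was at -0.17 without ethanol replicate 1 and was called lower at -0.70 without ethanol replicate 2 and at -0.46 with no filter on low counts. GENCODE places 35.8% of the exon bases of Rad54b within Fsbp on the same strand, so its count is uncertain. Whether the members that fell differ from those that did not was not tested.

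Both RecQ helicase genes among the members fell. Wrn had 34.5 and 38.6 CPM with tamoxifen and 73.6 and 80.4 CPM with ethanol, a 2.11-fold fall (-1.08 ± 0.15 log2, SE; edgeR adjusted p = 0.000271; -0.52 with GC correction, adjusted p = 0.0199). Here too the corrected call ended without tamoxifen replicate 1 (-0.47) or 2 (-0.57). Blm, whose product takes apart joined sister strands, had 164 and 160.7 CPM with tamoxifen and 295.8 and 269 CPM with ethanol. It fell 1.74-fold (-0.80 ± 0.15 log2, SE; edgeR adjusted p = 0.00138), and the corrected value of -0.39 did not pass (adjusted p = 0.0719).

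**Figure D3:**
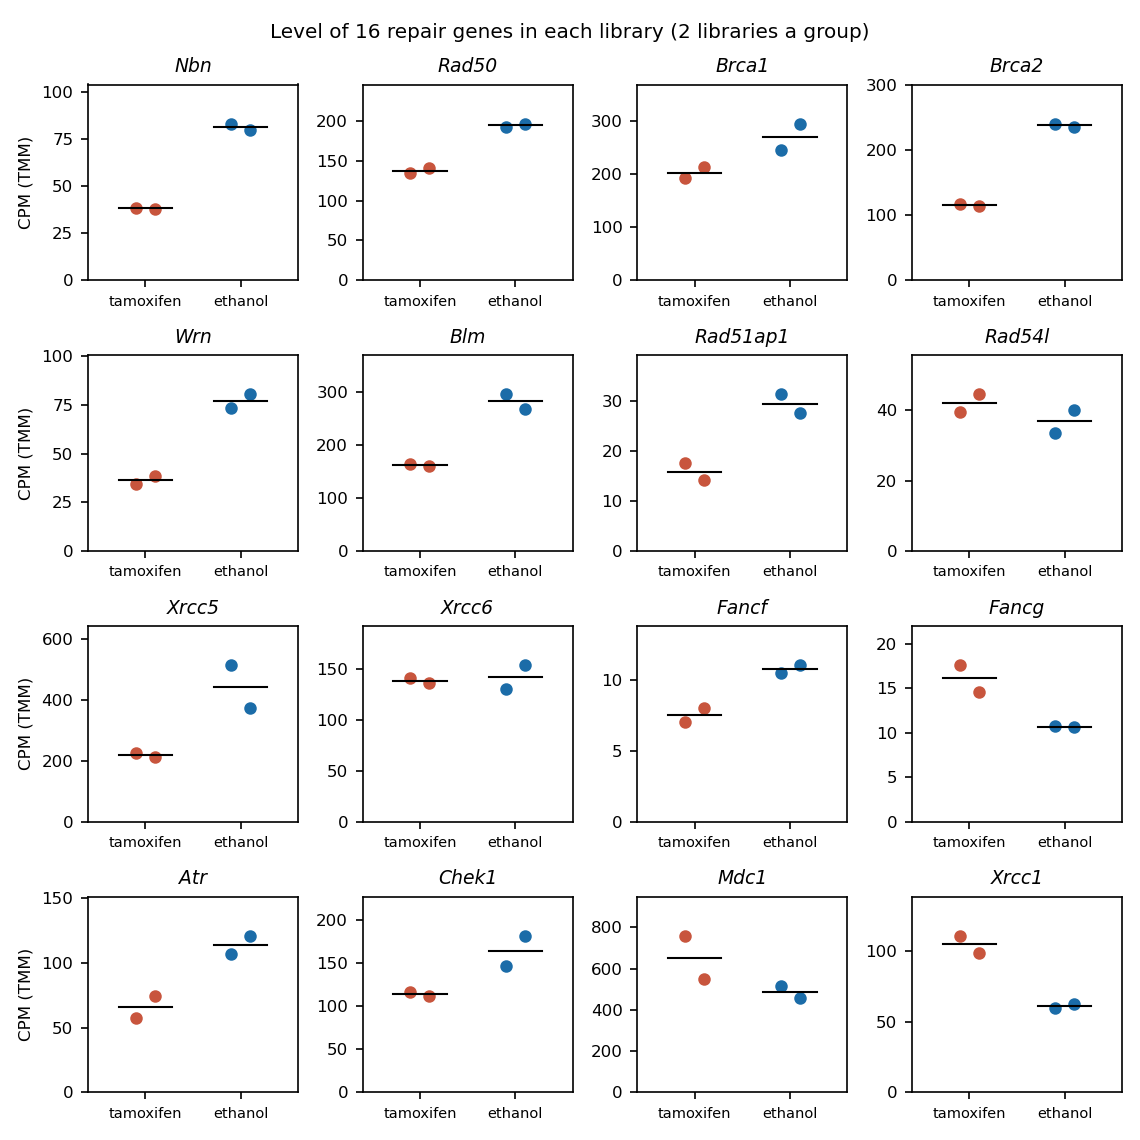
CPM (y axis, TMM-scaled, from 0) of 16 members in each library, tamoxifen left and ethanol right; points are libraries and bars are means of 2. Brca2 lies at 114.3 and 117.4 CPM with tamoxifen and 235.9 and 241.1 with ethanol, Xrcc5 at 212.6 and 224.5 with tamoxifen and 371.5 and 513.3 with ethanol, and Xrcc6 overlaps.

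Brca2 and Rad51ap1 were among the 6 members called lower with and without GC correction, and their promoters are shown as examples. Each runs from 250 bases before to 50 bases after the start in RefSeq (GRCm38.p6). That of Brca2 is chr5:150522371-150522670 on the plus strand, and that of Rad51ap1 is chr6:126939538-126939837 on the minus strand. Capitals mark matches on either strand to E2F-type cores, written TTCCCGC, also searched as TTGGCGC and further as TTCGCGC, and to the CCAAT box; matches can overlap. E2F factors are known to drive genes of S phase.
Brca2: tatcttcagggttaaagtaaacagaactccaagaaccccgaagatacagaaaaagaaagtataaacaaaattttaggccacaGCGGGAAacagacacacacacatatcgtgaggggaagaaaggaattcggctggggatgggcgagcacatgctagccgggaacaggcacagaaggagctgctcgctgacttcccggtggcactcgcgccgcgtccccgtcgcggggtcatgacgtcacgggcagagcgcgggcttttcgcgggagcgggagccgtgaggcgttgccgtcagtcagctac
Rad51ap1: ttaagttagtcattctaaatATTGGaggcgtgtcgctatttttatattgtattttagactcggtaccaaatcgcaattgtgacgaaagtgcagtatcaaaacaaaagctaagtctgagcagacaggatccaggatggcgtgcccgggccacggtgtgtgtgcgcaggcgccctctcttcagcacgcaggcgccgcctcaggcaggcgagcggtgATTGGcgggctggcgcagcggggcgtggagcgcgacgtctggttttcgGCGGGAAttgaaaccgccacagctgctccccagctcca
The table holds a promoter for 33 of the 43 members, and 18 of these (54.5%) have an E2F-type core. Counted by promoter, that is 18 of 35 (51.4%), against 8.07% of all 32851 promoters in it and 13.9% of those of tested genes. A CCAAT box was present for 66.7% of the members, in 65.7% of their promoters and in 37.4% of all promoters. An E2F-type core was present for 7 of the 12 matched members that fell, 10 of the 17 not called and 1 of the 4 that rose. These are matches of letters, not binding sites.

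Fanconi genes moved both ways, with 3 of 10 higher and 2 lower, or 30% and 20%, against 21.5% and 22.9% of all tested genes. With GC correction 1 of the 10 was lower and 0 higher (3 at an unadjusted p under 0.05). The core complex has 3 modules. Of the FANCA-FANCG module, Fancg had 17.6 and 14.6 CPM with tamoxifen and 10.8 and 10.6 CPM with ethanol, and Fanca had 48 and 51.2 CPM with tamoxifen and 35 and 36.9 CPM with ethanol. Both rose, Fancg by 0.59 ± 0.17 log2 (SE; edgeR adjusted p = 0.0156) and Fanca by 0.46 ± 0.14 (adjusted p = 0.0213). The corrected values were 0.44 and 0.19, neither of them called. Fanca was also not called without tamoxifen replicate 1 (0.51) or 2 (0.42), nor was Fancg without tamoxifen replicate 1 (0.45).

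The FANCC-FANCE-FANCF module, which recognises the clamp, split. Fancc rose by 0.55 ± 0.18 log2 (SE; edgeR adjusted p = 0.0277), with 9.27 and 9.58 CPM with tamoxifen and 6.45 and 6.41 CPM with ethanol. The call was lost by DESeq2 (0.55), with GC correction (0.42) and without tamoxifen replicate 1 (0.57), tamoxifen replicate 2 (0.53) or ethanol replicate 2 (0.55). Fancf, an adaptor of the complex, had 7 and 8.01 CPM with tamoxifen and 10.5 and 11 CPM with ethanol, and fell by 0.52 ± 0.18 log2 (adjusted p = 0.0359). With GC correction its value was -0.96 ± 0.18 (adjusted p = 0.00315), and that call was kept without each library in turn. Its uncorrected call was lost by DESeq2 (-0.52), with upper-quartile factors (-0.46) or total counts (-0.39) and without tamoxifen replicate 1 (-0.43), tamoxifen replicate 2 (-0.62) or ethanol replicate 2 (-0.47). At 57% its transcript is among the richer in G and C of the members, and it lies below most genes of that content in the plot against GC. Fance had 0.26 ± 0.15 and, with GC correction, -0.43, neither called.

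In the FANCB-FANCL module, which holds the ubiquitin ligase, Fancb had 13.9 and 15.6 CPM with tamoxifen and 20.9 and 24.7 CPM with ethanol. It fell by 0.63 ± 0.17 log2 (SE; edgeR adjusted p = 0.00989), a call that ended with GC correction (-0.01) and without tamoxifen replicate 1 (-0.55). Fancl had -0.33 ± 0.17 and the anchoring translocase gene Fancm -0.38 ± 0.16, neither called. Fancd2 (-0.22) and Fanci (0.11), the genes of the clamp itself, were not called in either test. In GENCODE, genes on the other strand overlap 16.4% of the exon bases of Fancc (Gm16133), 16% of Fanci (Polg), 15% of Fancf (Gas2), 13.7% of Fancl (Vrk2) and 10.5% of Fanca (Zfp276), so their counts are uncertain, and the strand setting of the counts is not given in the sources used here. Such exon overlaps with another gene exist for 22 of the 43 members.

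End joining genes had 1 of 6 lower and 0 higher (16.7% lower, against 22.9%), with 0 higher at an unadjusted p under 0.05 and by DESeq2 or limma voom. With GC correction the same gene was lower and 0 were higher (1 at an unadjusted p under 0.05). That gene was Xrcc5, which encodes Ku80. It had 224.5 and 212.6 CPM in the tamoxifen libraries, against 513.3 and 371.5 CPM in the ethanol libraries. The ethanol libraries differed from each other by more than those of tamoxifen, yet both lay above. Xrcc5 fell 2.02-fold (-1.02 ± 0.18 log2, SE; edgeR adjusted p = 0.000925), and with GC correction its value was -0.69 (adjusted p = 0.0126). Without ethanol replicate 1 the corrected value was -0.43, and without tamoxifen replicate 1 or 2 the corrected call ended (-0.75 and -0.64). Its obligate partner Xrcc6, which encodes Ku70, had 141.8 and 136.3 CPM with tamoxifen and 130.9 and 154.2 CPM with ethanol, and its groups overlapped (-0.04 ± 0.15 log2, SE; corrected -0.22, not called). The ratio of Xrcc5 to Xrcc6 in CPM was 1.58 and 1.56 with tamoxifen and 3.92 and 2.41 with ethanol, and the difference between their fold changes was not tested.

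The promoters of the Ku pair, from the same source, are given to compare a gene that fell with its partner that was not called. That of Xrcc5 is chr1:72307171-72307470 and that of Xrcc6 is chr15:82016119-82016418, both on the plus strand, with the same motifs in capitals.
Xrcc5: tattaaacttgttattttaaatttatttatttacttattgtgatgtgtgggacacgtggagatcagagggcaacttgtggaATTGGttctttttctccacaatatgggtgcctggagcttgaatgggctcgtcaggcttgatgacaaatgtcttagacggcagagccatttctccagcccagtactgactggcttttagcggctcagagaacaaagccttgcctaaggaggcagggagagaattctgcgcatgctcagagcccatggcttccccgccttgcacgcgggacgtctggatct
Xrcc6: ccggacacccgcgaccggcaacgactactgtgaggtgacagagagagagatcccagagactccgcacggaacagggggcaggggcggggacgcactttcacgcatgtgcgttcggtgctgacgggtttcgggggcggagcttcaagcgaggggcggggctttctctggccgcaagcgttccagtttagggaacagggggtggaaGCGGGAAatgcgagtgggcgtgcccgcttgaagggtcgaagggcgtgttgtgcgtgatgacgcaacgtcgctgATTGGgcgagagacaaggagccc
The Xrcc5 promoter had a GC content of 48% with 9 CpG pairs and no E2F-type core, and that of Xrcc6 had 64.3% with 30 CpG pairs and 1 such core. Nothing about a factor is drawn from these letters.

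The other end joining genes did not pass the test. Rif1, which with 53BP1 holds back trimming of the ends, had 592.6 and 774.7 CPM with tamoxifen and 786 and 996.8 CPM with ethanol, with -0.38 ± 0.18 log2 (SE; edgeR adjusted p = 0.104). Its transcript had the lowest GC content of the members (39.3%), and its corrected value was 0.36, not called and of the opposite sign. Prkdc, the catalytic subunit of DNA-PK, had 89.8 and 116.2 CPM with tamoxifen and 123.9 and 135.8 CPM with ethanol (-0.33 ± 0.16; corrected 0.14). The ligase gene Lig4 had 27.4 and 33.4 CPM with tamoxifen and 34.1 and 43.4 CPM with ethanol (-0.35 ± 0.17; corrected 0.21). For these 3 genes both tamoxifen libraries lay below both ethanol libraries, although none was called. Without ethanol replicate 1 these genes were called lower, Rif1 at -0.54, Lig4 at -0.51 and Prkdc at -0.40. In that fit more of all tested genes were called lower too. Trp53bp1, the gene of 53BP1, had 105 and 112 CPM with tamoxifen and 103.7 and 104.7 CPM with ethanol, which was 0.06 ± 0.14.

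Of the damage signalling genes 2 of 6 were lower and 0 higher (33.3% lower, against 22.9%), and 1 was higher at an unadjusted p under 0.05. DESeq2 and limma voom gave the same counts of calls. With GC correction 0 were called by edgeR in either direction, and at an unadjusted p under 0.05 1 was higher and 0 lower. The uncorrected median was -0.31 with all libraries and -0.45 without ethanol replicate 1. It was -0.29 without tamoxifen replicate 1, -0.42 without tamoxifen replicate 2 and -0.23 without ethanol replicate 2. Without ethanol replicate 1 more of these genes were called lower, and without any other library fewer. The share of all tested genes called lower moved the same way. Atr, the kinase recruited by single-stranded DNA, had 57.5 and 74.7 CPM with tamoxifen and 106.7 and 120.7 CPM with ethanol. It fell 1.72-fold (-0.78 ± 0.16 log2, SE; edgeR adjusted p = 0.00254), and the corrected value was -0.14, not called. Its effector kinase gene Chek1 had 116.7 and 111.7 CPM with tamoxifen and 145.9 and 181.3 CPM with ethanol. It fell by 0.52 ± 0.16 log2 (SE; edgeR adjusted p = 0.0172), but the sign turned with GC correction (0.12, not called), and the uncorrected call was lost with total counts (-0.39), without tamoxifen replicate 1 (-0.55) or 2 (-0.49) and without ethanol replicate 2 (-0.35). Both genes have transcripts low in GC (40.8% for Atr and 41% for Chek1).

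The break-activated kinase gene Atm had 92.1 and 113.4 CPM with tamoxifen and 129.3 and 139.4 CPM with ethanol, just outside the threshold (-0.39 ± 0.15 log2, SE; edgeR adjusted p = 0.0579; corrected 0.14). Its effector Chek2 (53.2 and 47.2 CPM with tamoxifen, 48.3 and 69.6 CPM with ethanol) and the ATR partner gene Atrip (-0.16) overlapped between the groups. Mdc1, a scaffold that reads phosphorylated H2AX beside a break, was the 1 signalling gene with a positive log2 fold change, and it did not pass the test. It had 759.1 and 549.1 CPM with tamoxifen and 515.3 and 455.7 CPM with ethanol, with 0.43 ± 0.18 log2 (SE; edgeR adjusted p = 0.0682; corrected 0.41). The tamoxifen libraries of Mdc1 differed by more than the gap between the groups. It was called higher with upper-quartile factors (0.49), total counts (0.56), no filter on low counts (0.42) and a replicate block (0.41). The same held without tamoxifen replicate 2 (0.65) or ethanol replicate 1 (0.53). With GC correction Mdc1 was called higher when the replicate block was added or ethanol replicate 1 was left out.

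Neither mismatch repair gene passed the test in edgeR, DESeq2 or limma voom, and 1 was lower at an unadjusted p under 0.05 by edgeR. The recognition subunit gene Msh6 had 773.8 and 961.2 CPM with tamoxifen and 704.3 and 959.9 CPM with ethanol, and the groups overlapped (0.06 ± 0.19 log2, SE). Pms2, a mismatch repair nuclease subunit gene, had 24.5 and 32.1 CPM with tamoxifen and 34.1 and 39.8 CPM with ethanol (-0.39 ± 0.17, adjusted p = 0.0836). Of the single-strand break genes, Xrcc1, the scaffold that gathers polymerase and ligase, had 110.4 and 98.3 CPM with tamoxifen and 59.6 and 62.1 CPM with ethanol. It rose 1.71-fold (0.78 ± 0.14 log2, SE; edgeR adjusted p = 0.00135), the largest rise among the members, and the corrected value of 0.20 was not called. Its transcript has 59.3% GC. The sensor gene Parp1 had 576.1 and 576.8 CPM with tamoxifen and 492.1 and 594 CPM with ethanol, and the groups overlapped (0.09 ± 0.16).

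**Figure D4:**
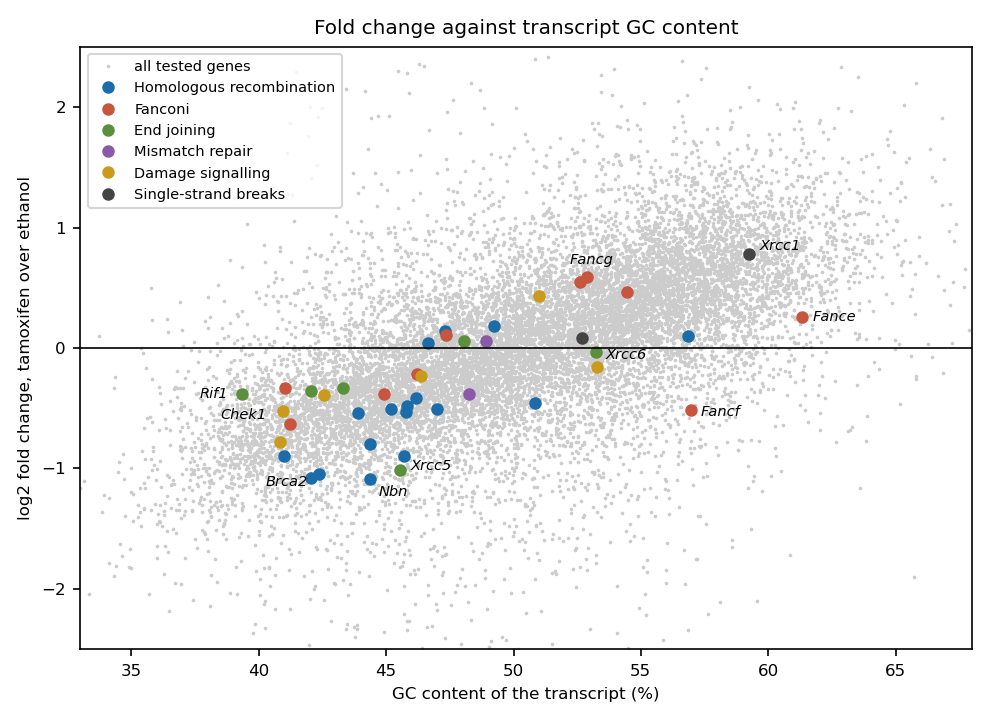
Log2 fold change, tamoxifen over ethanol (y axis), against GC content of the transcript (x axis, %) for all tested genes with a value inside the axes (grey) and the members by pathway. Xrcc1 (59.3% GC, 0.78) lies near the slope of the grey points (0.20 with GC correction, not called). Brca2 (42.4%, -1.04) and Fancf (57%, -0.52) lie below it (-0.50 and -0.96 with GC correction).

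Per kilobase of transcript, the levels of the members ran from 2.98 (Fancc) to 204 CPM (Msh6) with tamoxifen and from 2.03 to 196 CPM with ethanol for the same genes. Parp1 had 149 CPM per kb with tamoxifen and 140 with ethanol. Xrcc5 stood at 85.5 CPM per kb with tamoxifen and 173 with ethanol, that is below Parp1 with tamoxifen and above it with ethanol. Mdc1 had 89.2 CPM per kb with tamoxifen and 66.2 with ethanol, and Rif1 had 80.3 with tamoxifen and 105 with ethanol, neither of them called. Xrcc6 stood at 42.2 CPM per kb with tamoxifen and 43.3 with ethanol, and Xrcc1 at 41.3 with tamoxifen and 24.1 with ethanol. Among the lowest were Fancg (5.82 with tamoxifen, 3.85 with ethanol), Fancb (4.95 with tamoxifen, 7.65 with ethanol) and Fancf (4.44 with tamoxifen, 6.36 with ethanol).

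Among 60 other tested genes of break, crosslink and mismatch repair, 17 were lower and 6 higher, or 28.3% and 10%, against 22.9% and 21.5% of all tested genes, with a median log2 fold change of -0.25. With GC correction 4 were lower and 4 higher, or 6.67% each, against 10% and 10.1%, and the median was 0.03. With total counts 13 were lower and 11 higher, or 21.7% and 18.3%, against 17.4% and 28.2% of all tested genes. Those with the smallest adjusted p among the lower ones were Brcc3 (-1.12 ± 0.16 log2, SE), a deubiquitinase of a BRCA1 complex, Ube2t (-1.06 ± 0.16), which conjugates ubiquitin to the Fanconi clamp, and Rad18 (-0.94 ± 0.15), the ligase of damage bypass. With GC correction Ube2t (-0.86) and Rad18 (-0.50) were still called and Brcc3 was not (-0.11). Among the higher ones were the end joining polymerase gene Poll (1.09 ± 0.17) and the crossover nuclease gene Mus81 (1.14 ± 0.20). Poll (0.57) and Mus81 (0.61) were still called with the correction. Of 34 cell cycle genes, 10 (29.4%) were lower and 5 (14.7%) higher (7 and 7 with total counts, or 20.6% each). The summed level of the 34 was 8859 and 9501 CPM with tamoxifen and 11320 and 11160 CPM with ethanol. Of 24 p53 targets 6 were lower and 6 higher, or 25% each (2 and 8 with total counts, or 8.33% and 33.3%). With GC correction 2 cell cycle genes (5.88%) were lower and 1 (2.94%) higher, against 10% and 10.1% of all tested genes. Of the p53 targets 0 were then lower and 4 (16.7%) higher. The part of the cell cycle in the lower level of recombination genes was not tested.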

How the data were processed

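For 4 poly(A) RNA-seq libraries the authors deposited whole-number read counts per gene symbol. The closing summary lines were dropped before scaling and testing; reads outside genes were 37.6 and 35% of the counted total with tamoxifen and 51.7 and 40.8% with ethanol. The submitters' processing notes name mm9 as the build, and DESeq2, HTSeq, Bowtie 1.1.1 and CASAVA 1.8.2 as tools. What each tool did, which annotation was counted and whether strand was used is not given in the sources used here, so near-identical or overlapping genes may share reads. Groups came from the titles. No library was a copy of another: chi-square over degrees of freedom between replicates was 8.72 with tamoxifen and 30.3 with ethanol.

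Tamoxifen was compared with ethanol by edgeR 4.0.16 in R 4.3.3 (quasi-likelihood test, robust, TMM factors, filterByExpr, group only), with Benjamini-Hochberg adjustment over 14479 genes and a threshold of 0.05. SE was derived from the log2 fold change and its F statistic. For GC correction, a loess trend (span 0.5, degree 1) of each library against GC content of the longest coding transcript (GENCODE M21, GRCm38) entered as an offset; 23535 symbols had a direct match, 506 matched by a synonym and 387 had none. Other settings were other scaling, filters, thresholds, GC with length, DESeq2 1.42.0, limma 3.58.1 voom, a replicate block and each library left out. The procedure was tested on simulated data.

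The members, lists, tests and GC correction were chosen with earlier results of these data known. Library values are given for up to 5 members of each pathway with the smallest adjusted p, and for the other repair genes the 3 with the smallest adjusted p in each direction are named, of which 1 is not reported here. Library values of Rad51ap1 and Xrcc6 and the members drawn beyond that were chosen after their values were seen.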

Additional observations from a re-analysis of the deposited data

How the results depend on the processing

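Of 21 called members, Nbn, Wrn, Brca2, Rbbp8, Blm, Rad51ap1, Xrcc5 and Atr kept a call lower without each library in turn, and Xrcc1 a call higher. Under the 3 other scalings 12 of 17 kept the call lower and 4 of 4 the call higher. The share of all called genes that kept a call in the same fits is not given here. Whether the members were more or less stable than other called genes is therefore not known. Total counts moved the median of all genes to 0.12 log2, against -0.01 with TMM factors, with 12 members lower and 5 higher. With GC correction 6 members were lower and 0 higher (all genes 1449 and 1467), and with GC and length 7 and 0 (1364 and 1356). With GC correction and a replicate block 9 were lower and 5 higher, or 20.9% and 11.6%, against 17% and 17.8% of all tested genes. At a threshold of 0.01, 9 were lower and 1 higher (2041 and 1765). Without 1 library, with or without GC correction, members lower ran from 1 to 25 and higher from 0 to 5, and all genes from 418 to 3728 and 375 to 3598. Of the 6 corrected calls 1, that of Fancf, was kept without each library. Where 1 library of a group remained, its variation was taken to equal that of the other group.

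With GC correction alone the sign turned for 11 members, of which 1, Chek1, was called without the correction and 0 with it. Fance and Rif1, among the 11, were called with the replicate block added (-0.43 and 0.36); Chek1 was at 0.12 with GC correction, 0.12 with the block added and 0.088 with length. Without 1 library, Chek1 ran from -0.66 to 0.22, Rif1 from -0.59 to 0.50, Fance from -0.47 to 0.32, Xrcc3 from -0.45 to 0.31 and Fancb from -0.74 to 0.063. The cause was not tested. Same-numbered libraries deviated together with a correlation of 0.268 over 2 pairs, too few to establish pairing; with the replicate block 24 members were lower and 5 higher (all genes 4168 and 3919).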
